A study of Zea mays with 6 samples.

Results

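Shared DNase I hypersensitive sites (DHSs) that were much wider in inner stem tissue of V2 seedlings (V2-IST) than in husk were taken from the integrated DHS lists of the 2 tissues. DHSs of the 2 lists were paired when they overlapped by at least 1 bp and neither overlapped any other DHS of the other list. Such one-to-one pairs in which the V2-IST DHS was at least 1.5 times as wide as the husk DHS were selected. The rule gave 2117 pairs out of 11584 one-to-one pairs, from 18485 V2-IST DHSs and 15261 husk DHSs. The widths themselves chose these pairs, so the numbers and widths below describe the selection and are not evidence for a difference between the tissues.

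DNase-seq reads the DNA ends left by the nuclease DNase I, which cuts where DNA is not tightly packed in nucleosomes. DHSs mark open chromatin, in plants mostly at promoters, at enhancers and at other sequences bound by regulatory proteins. A DHS can be present in several tissues and still differ in its extent, since the cut region may cover one or more binding sites and the linker DNA beside them.

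All material came from the maize inbred line B73, grown in the greenhouse with 16 h of light. V2-IST was the stem of seedlings in the early vegetative stage V2 after outer leaves and exposed blades had been taken off, with 2 libraries from 2 biological replicates. Husk consisted of the soft inner leaves enclosing the ear, without the tough outer ones. It was taken when silks emerged and before pollination, with 3 libraries from 2 biological replicates, 1 of them technical. A library of DNase I-treated naked DNA served as control in peak calling. The deposited lists contain a chromosome, a start and an end per DHS and no gene names, so the tissue labels could not be checked against marker genes. With 1 integrated list per tissue there is no spread between replicates to set a difference against, and no test between the tissues was made. Intervals below are 95% intervals (Wilson for a share, Newcombe for a difference of shares). They cover counting error only and take each pair as an independent observation, although close pairs need not be.

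The 2117 pairs made up 18.3% of all one-to-one pairs, 11.5% of all V2-IST DHSs and 13.9% of all husk DHSs. The opposite case, a husk DHS at least 1.5 times as wide as its V2-IST partner, was found in 952 pairs (8.22%), and the remaining 8515 pairs (73.5%) had more similar widths. Among the selected pairs the V2-IST DHS had a median width of 877 bp (quartiles 519 and 1263 bp, range 224 to 6493 bp). Their husk DHS had a median width of 345 bp (quartiles 248 and 528 bp, range 135 to 3003 bp). In the pairs of more similar widths the medians lay close together, at 495 bp in V2-IST, against 484 bp in husk. In the pairs wider in husk the medians were 376.5 bp in V2-IST, against 856 bp in husk.

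**Figure D1:**
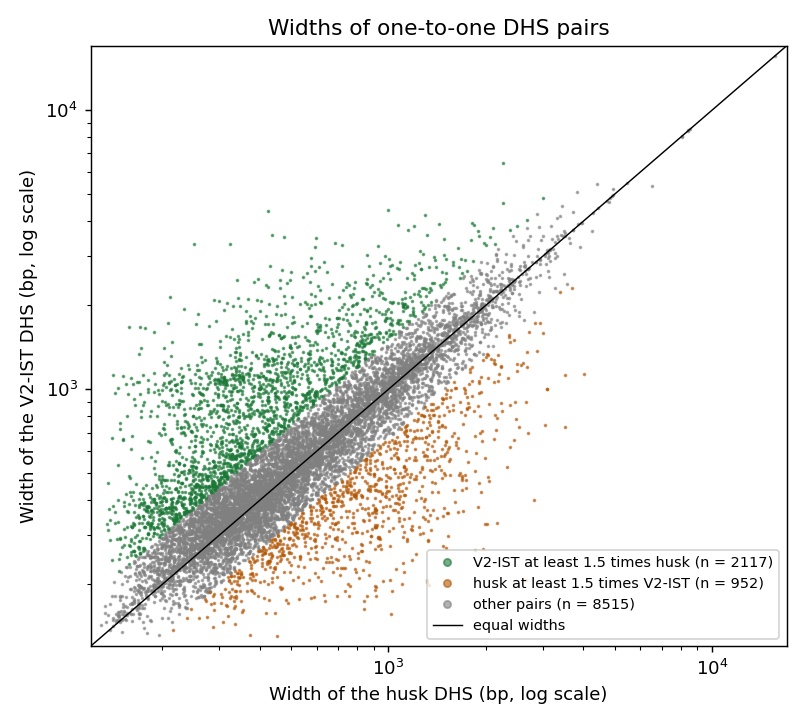
Width of the V2-IST DHS (vertical axis, bp, log scale) against the width of its husk partner (horizontal axis, bp, log scale), 1 point per one-to-one pair, with equal widths on the black line. The 2117 selected pairs lie above the band of 8515 pairs of more similar widths and the 952 pairs wider in husk below it. Points were coloured by the same widths that are plotted.

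The extent of the difference varied widely among the selected pairs. The median width ratio was 2.02 (quartiles 1.69 and 2.77), and the highest was 13.2. A ratio of 1.5 to below 2 was found in 1023 pairs (48.3%), 2 to below 3 in 654 (30.9%), 3 to below 5 in 355 (16.8%) and at least 5 in 85 (4.02%). Over all one-to-one pairs the ratio of V2-IST to husk width had a median of 1.06 (quartiles 0.908 and 1.34), so the whole set was shifted somewhat towards V2-IST. The excess over the opposite direction was greater at higher ratios. At a ratio of at least 2 there were 1094 pairs wider in V2-IST against 440 wider in husk (2.49 times as many). At a ratio of at least 3 the numbers were 440 against 148 (2.97 times), at least 4 they were 192 against 52 (3.69 times) and at least 5 they were 85 against 19 (4.47 times). A ratio of at least 10 was reached by 5 pairs wider in V2-IST and by 1 pair wider in husk.

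In base pairs, the V2-IST DHS exceeded its husk partner by a median of 456 bp (quartiles 231 and 764 bp, range 77 to 4229 bp). The excess was under 200 bp in 408 pairs (19.3%), 200 to below 500 bp in 734 (34.7%), 500 to below 1000 bp in 701 (33.1%) and 1000 to below 2000 bp in 237 (11.2%). In 37 pairs (1.75%) it was at least 2000 bp. Summed over the selected pairs, DHSs covered 2166.31 kb in V2-IST and 947.843 kb in husk, a ratio of 2.29 and a difference of 1218.47 kb. In the pairs wider in husk, the difference of V2-IST minus husk was -503.922 kb. In the pairs of more similar widths V2-IST covered 172.271 kb more, and over all one-to-one pairs 886.817 kb more. The complete lists differed by 2993.83 kb, of which DHSs found in 1 list only made up 2037.98 kb.

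Since the husk width is part of the ratio, the share of selected pairs depended on it. When all pairs were split into 10 classes by husk width, 476 of 1176 pairs (40.5%) were selected in the class with the narrowest husk DHSs (129 to 236 bp). The share was 17.8% in class 5 (405 to 474 bp) and 4.92% in the class with the widest husk DHSs (1270 to 15619 bp). The share of pairs wider in husk ran the other way, with 6.52% in class 5 and 20.4% in the class with the widest husk DHSs. The V2-IST DHSs of the selected pairs had a median width of 396 bp over the narrowest husk DHSs, 978 bp in class 5 and 2874 bp over the widest. Of the selected pairs, 188 (8.88%) had a V2-IST DHS of at least 2000 bp, against 267 (3.14%) of the pairs of more similar widths.

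At the threshold itself, 8 pairs had a ratio of exactly 1.5. Among these, the DHS on chromosome 1 at 297240701-297241069 measured 369 bp in V2-IST, against 246 bp in husk. The DHS on chromosome 2 at 19014532-19014966 measured 435 bp in V2-IST, against 290 bp in husk, and that at 163640334-163640570 on the same chromosome 237 bp in V2-IST, against 158 bp in husk. Just below it lay a DHS on chromosome 1 at 301302535-301303631, with 1097 bp in V2-IST, against 732 bp in husk (ratio 1.4986). Another on chromosome 1 at 7044379-7045412 had 1034 bp in V2-IST, against 690 bp in husk (1.4986), and one on chromosome 6 at 134285903-134286341 had 439 bp in V2-IST, against 293 bp in husk (1.4983). There were 172 pairs at the threshold or less than 0.05 above it and 197 pairs less than 0.05 below it, so it lay within a continuous range of ratios.

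To see where the added length of the wider DHS lay, the listed edges of both DHSs were compared. The V2-IST DHS contained the whole husk DHS in 1575 of the 2117 pairs (74.4%, interval 72.5 to 76.2%). In the pairs wider in husk, the husk DHS contained the whole V2-IST DHS in 613 of 952 (64.4%, 61.3 to 67.4%). In the other 542 selected pairs the husk DHS reached beyond the V2-IST DHS at 1 edge. An extension was counted as one-sided by the share of the added length on its longer side. At least 90% of the added length lay on a single side in 1228 selected pairs (58.0%, 55.9 to 60.1%), against 583 (61.2%, 58.1 to 64.3%) of the pairs wider in husk. The 1228 pairs include the 542 in which the husk DHS reached beyond the V2-IST DHS at the other edge, where this holds by definition. Of the 1575 pairs in which the V2-IST DHS contained the whole husk DHS, 686 were one-sided and 889 were not. In 912 of all selected pairs (43.1%), on either side, at least 1 edge lay within 30 bp of the edge in husk. Among the pairs wider in husk this held for 373 (39.2%). Both sides were extended by at least 100 bp in 394 pairs (18.6%) and by at least 200 bp in 152 (7.18%). The longer side was the low-coordinate side in 1027 pairs and the high-coordinate side in 1089. Strand and gene orientation were not analysed here, so the side could not be related to transcription.

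The longer extension had a median length of 416 bp (quartiles 188 and 727 bp, longest 3878 bp) and the shorter one a median of 28 bp (quartiles -1 and 75 bp, where a negative value means that the V2-IST edge lay inside the husk DHS). The lengths of the longer extension were not spread evenly. In bins of 50 bp, 280 pairs fell in the bin from 150 bp and 233 in the bin from 100 bp. A broad shoulder followed in the selected pairs and in the pairs wider in husk. A longer extension of 400 to below 800 bp was found in 686 selected pairs (32.4%), against 339 pairs wider in husk (35.6%), and one of 800 bp or more in 406 selected pairs (19.2%), against 150 pairs wider in husk (15.8%). The pairs wider in husk also had most extensions in the bin from 150 bp. A longer extension of 100 to below 200 bp occurred in 513 selected pairs (interval 22.5 to 26.1%) and in 190 pairs wider in husk (17.5 to 22.6%).

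**Figure D2:**
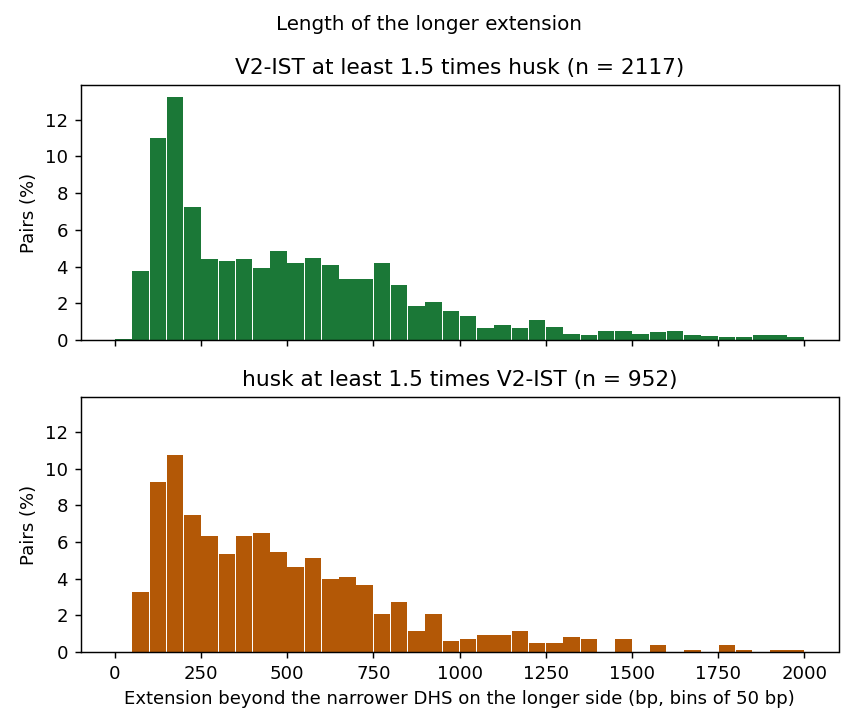
Length of the longer extension beyond the narrower DHS (horizontal axis, bp, bins of 50 bp) as a percentage of pairs (vertical axis), for the 2117 pairs wider in V2-IST (top) and the 952 pairs wider in husk (bottom). Both have their highest bin from 150 bp, and in both a broad shoulder follows at greater lengths. Not drawn are 21 pairs wider in V2-IST and 7 pairs wider in husk with extensions of 2000 bp or more.

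When all selected pairs were placed on the centre of the husk DHS with the longer extension to the right, the V2-IST DHS still covered the position 250 bp to the right in 89.1% of pairs, against 27.6% for the husk DHS. At 500 bp to the right the shares were 60.2% for V2-IST and 6.14% for husk, and at 1000 bp they were 23.0% for V2-IST and 0.472% for husk. On the left, at 250 bp from the centre, the lists were much closer, with 38.8% for V2-IST and 27.7% for husk. Since the longer side was turned to the right in every pair, the asymmetry of this profile is part of its construction.

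**Figure D3:**
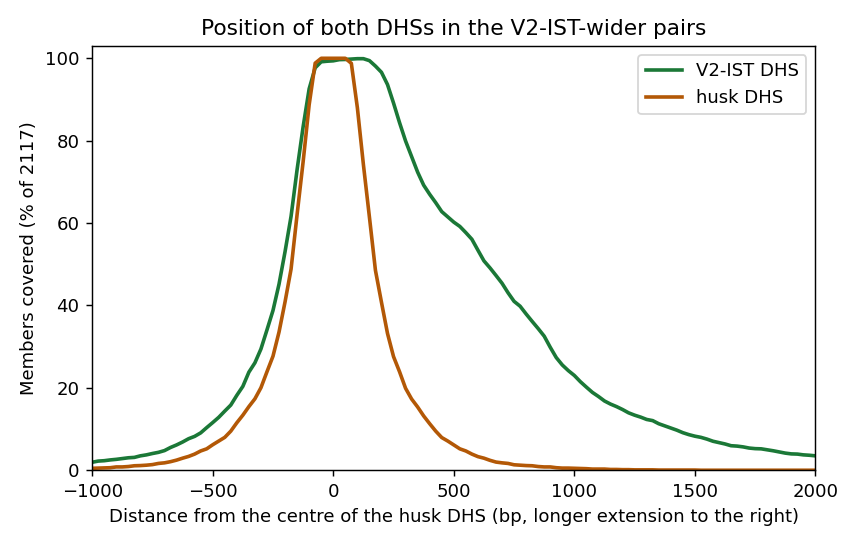
Percentage of the 2117 selected pairs in which a position is covered by the V2-IST DHS or by the husk DHS (vertical axis), by distance from the centre of the husk DHS (horizontal axis, bp), with the longer extension turned to the right. At 500 bp to the right the V2-IST DHS covered 60.2% of pairs and the husk DHS 6.14%.

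The selected pairs differed among themselves in the form of the extension. In the 1023 pairs with a ratio of 1.5 to below 2, 50.7% had a one-sided extension (at least 90% of the added length on 1 side, as above). In the 355 pairs with a ratio of 3 to below 5 this was 76.1%, and in the 85 pairs with a ratio of at least 5 it was 67.1% (56.5 to 76.1%). The one-sided pairs had a median added length of 560 bp, and the other 889 pairs one of 303 bp. The 747 pairs with a longer extension under 250 bp were mainly narrow DHSs, with medians of 448 bp in V2-IST, against 249 bp in husk. The 1092 pairs with a longer extension of at least 400 bp had medians of 1230.5 bp in V2-IST, against 452 bp in husk. All these groups were formed from the same widths and edges, so the values describe them only.

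The pair with the highest ratio was on chromosome 4 at 219511836-219515146, with 3311 bp in V2-IST, against 250 bp in husk (13.2 times). It extended on both sides, by 1864 bp on the low-coordinate side and 1197 bp on the high-coordinate side. Next came a DHS on chromosome 9 at 125435505-125437179, with 1675 bp in V2-IST, against 158 bp in husk (10.6 times), of which 1417 bp were added on the high-coordinate side. A DHS elsewhere on chromosome 9, at 28454920-28459286, measured 4367 bp in V2-IST, against 425 bp in husk (10.3 times). It too was extended on both sides, by 1637 and 2305 bp. The DHS on chromosome 10 at 705517-708820 measured 3304 bp in V2-IST, against 324 bp in husk (10.2 times). The next, on chromosome 5 at 196441911-196444054, measured 2144 bp in V2-IST, against 211 bp in husk (10.2 times). It was one-sided, with 3 bp added on the low-coordinate side and 1930 bp on the high-coordinate side. High ratios therefore occurred with extensions on both sides as well as on 1 side.

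The most bases were added at a DHS on chromosome 1 at 5494303-5500795, which measured 6493 bp in V2-IST, against 2264 bp in husk. Of the 4229 bp added, 3878 bp lay on the high-coordinate side. The DHS at 28454920-28459286 on chromosome 9 followed with 3942 bp added. On chromosome 1, the DHS at 277885928-277890319 measured 4392 bp in V2-IST, against 998 bp in husk and had 3394 bp added. On chromosome 2, the DHS at 18447123-18450683 measured 3561 bp in V2-IST, against 438 bp in husk and had 3123 bp added. The chromosome 4 DHS with the highest ratio followed, with 3061 bp added, so 2 DHSs were among the first 5 by both measures. In the order given, the nearest V2-IST-only DHS of these 5 lay at 62044, 21503, 2943, 3136 and 397043 bp. The widest husk DHS of a selected pair measured 3003 bp, against 4839 bp in V2-IST (1.61 times), on chromosome 8 at 176856919-176861757.

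All 10 chromosomes carried selected pairs, from 125 on chromosome 10 to 361 on chromosome 1. As a share of the one-to-one pairs of the chromosome they ranged between 16.3% (chromosome 8, interval 14.1 to 18.7%) and 19.9% (chromosome 7, 17.5 to 22.5%). All 10 intervals included the 18.3% found over all pairs. The pairs wider in V2-IST outnumbered those wider in husk on every chromosome, by between 1.78 times (chromosome 2) and 2.62 times (chromosome 4).

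Position along the chromosome was not used in the selection. Each chromosome was divided into 10 equal parts by the largest end coordinate in either list. Of the selected pairs, 815 (38.5%, 36.4 to 40.6%) lay in the terminal part at either end, against 2916 (34.2%, 33.2 to 35.3%) of the pairs of more similar widths. The difference was 4.25 percentage points (1.96 to 6.57). Against the pairs wider in husk, of which 342 (35.9%) lay there, the difference was 2.57 points with an interval that included 0 (-1.14 to 6.22). By single parts, selected pairs made up 19.1% (17.3 to 21.0%) of one-to-one pairs in part 1 and 20.7% (19.1 to 22.4%) in part 10. In part 9, beside the terminal part 10, the share was 19.3% (17.4 to 21.3%). Of the terminal parts, only part 10 had an interval above the 18.3% found over all pairs. Within 2 Mb of a chromosome end there were 70 selected pairs (3.31%), 16 pairs wider in husk (1.68%) and 187 pairs of more similar widths (interval 1.91 to 2.53%). The selected pairs exceeded the pairs of more similar widths by 1.11 points (0.352 to 2.01) and the pairs wider in husk by 1.63 points (0.389 to 2.69). In the 2 central parts of the chromosomes the share was 10.5% for the selected pairs and 11.2% for the pairs of more similar widths (difference -0.635 points, -2.05 to 0.891). For the pairs wider in husk it was 7.88%, which the selected pairs exceeded by 2.66 points (0.401 to 4.73).

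**Figure D4:**
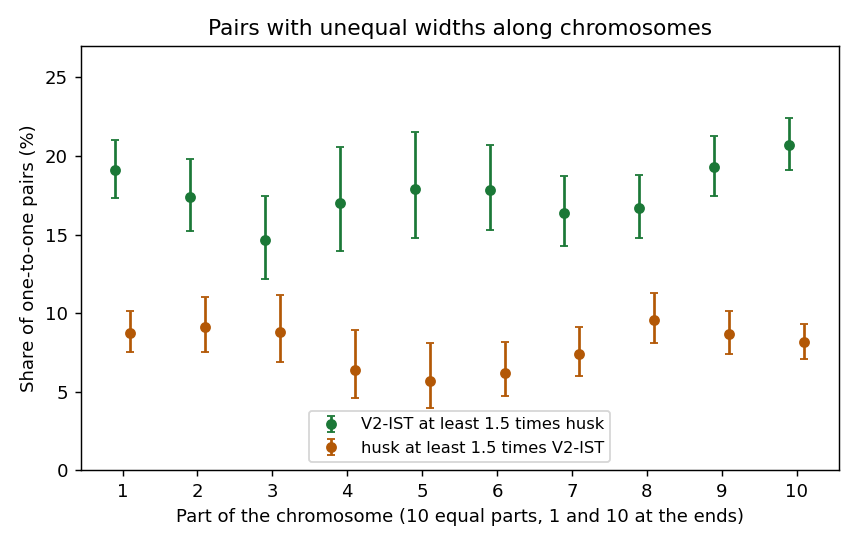
Share of one-to-one pairs that were at least 1.5 times as wide in V2-IST or in husk (vertical axis, %) in each of 10 equal parts of the chromosomes (horizontal axis), summed over 10 chromosomes, with Wilson intervals (95%). The share wider in V2-IST was lowest in part 3 (14.6%) and highest in part 10 (20.7%).

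The comparison of positions was repeated within classes of DHS width, without a test between the classes. Among pairs with a husk DHS of at least 600 bp, 45.5% of the selected pairs and 36.9% of the pairs of more similar widths lay in the terminal parts (difference 8.63 points, 3.66 to 13.7). With husk DHSs of 300 to below 600 bp the difference was 6.34 points (2.80 to 9.94), and under 300 bp it was 2.87 points (-1.01 to 6.84). When pairs with a similar V2-IST width were compared instead, all 4 intervals included 0. The differences were then 5.62 points under 400 bp, 0.497 points at 400 to below 800 bp, 1.72 points at 800 to below 1200 bp and 4.49 points at 1200 bp or more. All 4 differences were positive, but at these numbers none could be told from 0 within a class of V2-IST width.

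To examine whether the selected pairs lay near DHSs found in 1 list only, the distance to the nearest such DHS was measured from the outer edges of the pair. A V2-IST-only or husk-only DHS is one that overlapped no DHS of the other list. The lists hold only peaks kept after comparison of replicates. Absence from a list therefore does not show that the site was closed in that tissue. A V2-IST-only DHS lay within 5 kb of 442 selected pairs (20.9%, 19.2 to 22.7%), against 145 pairs wider in husk (15.2%, 13.1 to 17.7%) and 1355 pairs of more similar widths (15.9%, 15.2 to 16.7%). The selected pairs exceeded the pairs wider in husk by 5.65 percentage points (2.70 to 8.44) and the pairs of more similar widths by 4.97 points (3.11 to 6.90). A husk-only DHS lay within 5 kb of 127 selected pairs (interval 5.06 to 7.09%), against 108 pairs wider in husk (11.3%) and 647 pairs of more similar widths (7.60%). The selected pairs differed by -5.35 points (-7.71 to -3.19) from the pairs wider in husk and by -1.60 points (-2.70 to -0.378) from the pairs of more similar widths. V2-IST DHSs of any kind were found within 5 kb of 44.0% of the selected pairs and 42.1% of the pairs of more similar widths, a difference of 1.90 points with an interval that included 0 (-0.452 to 4.27). V2-IST DHSs shared with husk were less frequent near the selected pairs than near the pairs of more similar widths. The difference was -2.77 points (-3.98 to -1.44) within 1 kb, -2.11 points (-4.27 to 0.102) within 5 kb and -3.63 points (-5.95 to -1.34) within 50 kb. Husk DHSs of any kind lay within 5 kb of 33.7% of the selected pairs and 36.8% of the pairs of more similar widths, a difference of -3.11 points (-5.35 to -0.833). The one-to-one rule left out V2-IST DHSs that reached another husk DHS, and husk DHSs that reached another V2-IST DHS. It thus removed wide DHSs with close neighbours in the other list, so the neighbour shares are not independent of the selection. How much of the differences came from this was not tested.

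**Figure D5:**
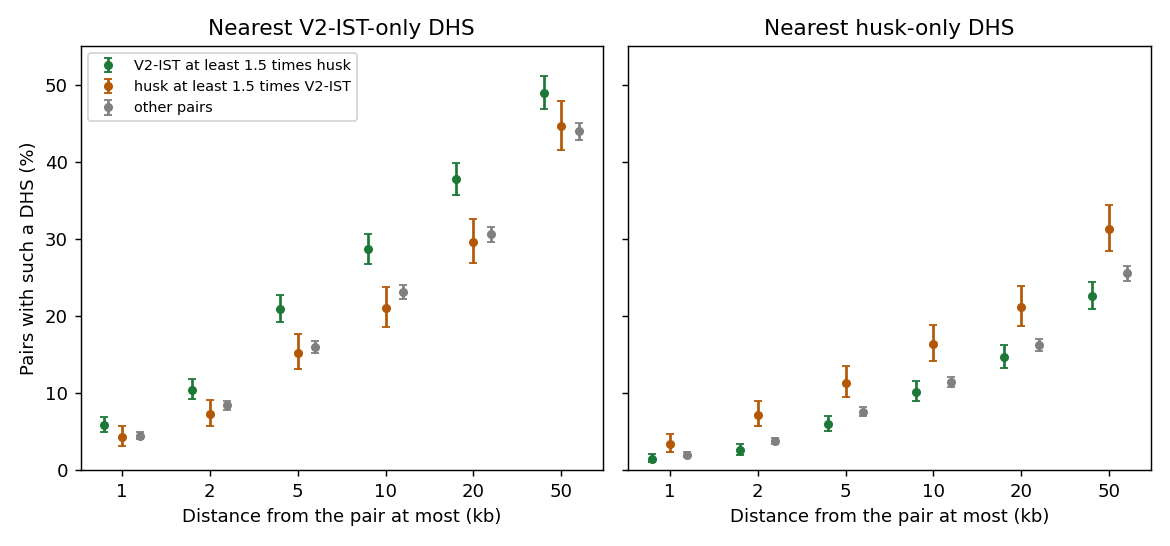
Share of pairs with a V2-IST-only DHS (left) or a husk-only DHS (right) at or below a given distance from the pair (horizontal axis, kb), with Wilson intervals (95%), for the 2117 pairs wider in V2-IST, the 952 pairs wider in husk and the 8515 other pairs. Within 5 kb a V2-IST-only DHS was found at 20.9% of the pairs wider in V2-IST, 15.2% of the pairs wider in husk and 15.9% of the other pairs.

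Relative to the pairs of more similar widths, the higher share of V2-IST-only neighbours was present at each distance examined. It was 5.86% against 4.45% in the pairs of more similar widths within 1 kb, 28.7% against 23.1% within 10 kb, 37.7% against 30.6% within 20 kb and 48.9% against 43.9% within 50 kb. Against the pairs wider in husk, the interval of the difference within 1 kb included 0 (-0.197 to 3.11). The higher share was also present in each class of husk width. The difference to the pairs of more similar widths was 4.35 points (1.35 to 7.52) for husk DHSs under 300 bp, 6.57 points (3.75 to 9.60) at 300 to below 600 bp and 7.92 points (3.70 to 12.5) at 600 bp or more. It held in the terminal parts of the chromosomes (25.3% against 20.1%) and in the rest (18.1% against 13.8%). Within classes of V2-IST width it was smaller in the middle. There it was 6.87 points (2.33 to 12.2) under 400 bp, 1.15 points (-1.79 to 4.40) at 400 to below 800 bp, 2.17 points (-1.58 to 6.15) at 800 to below 1200 bp and 4.43 points (0.122 to 8.86) at 1200 bp or more. For V2-IST DHSs of 400 to below 1200 bp a difference was therefore not detectable at these numbers.

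The lower share of husk-only neighbours was less even. At other distances, the interval of the difference from the pairs of more similar widths included 0 within 1 kb (-1.07 to 0.134), 10 kb (-2.60 to 0.313) and 20 kb (-3.17 to 0.233), and it lay below 0 within 2 kb (-1.94 to -0.347) and 50 kb (-4.85 to -0.835). The interval within 5 kb also included 0 in each of the 3 classes of husk width. By V2-IST width the difference was -2.46 points (-4.60 to 0.873) under 400 bp and -2.52 points (-4.27 to -0.386) at 400 to below 800 bp. It was -2.31 points (-4.48 to 0.146) at 800 to below 1200 bp and -0.709 points (-3.46 to 2.28) at 1200 bp or more. By position the difference was -2.66 points (-3.93 to -1.20) outside the terminal parts and 0.0681 points (-1.88 to 2.31) within them. Among the 37 pairs with at least 2000 bp added, 14 (37.8%, 24.1 to 53.9%) had a V2-IST-only DHS within 5 kb and 1 had a husk-only DHS there. The share with a V2-IST-only DHS was 18.9% in one-sided pairs (16.8 to 21.2%) and 23.6% in the other selected pairs (20.9 to 26.5%).

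Finally, the order of the pairs along the chromosomes was examined. The next one-to-one pair was also a selected pair in 395 of 2114 cases (18.7%) after a selected pair and in 1577 of 8508 cases (18.5%) after a pair of more similar widths. The difference was 0.149 points (-1.66 to 2.05). For next pairs within 5 kb the shares were 19.2% (67 of 349) after a selected pair and 17.8% (267 of 1496) after a pair of more similar widths, a difference of 1.35 points (-2.94 to 6.18). After a pair wider in husk, the next pair was a selected one in 144 of 952 cases (15.1%, 13.0 to 17.5%), and within 5 kb in 25 of 192 (13.0%, 8.98 to 18.5%). Relative to the pairs of more similar widths, a higher share of selected pairs next to a selected pair was thus not detectable. Selected pairs were 18.3% of all one-to-one pairs, and at such a share single ones are common in any order. Of the selected pairs, 1398 were single, 265 runs had 2 pairs, 48 had 3, 10 had 4 and 1 had 5. The longest run spanned 796 kb on chromosome 1, at 275159447-275955801, with ratios between 1.51 and 2.67. The closest selected pairs were on chromosome 7, at 166102662-166104097 and 166104611-166105314, with a gap of 513 bp. The first of them measured 1436 bp in V2-IST, against 584 bp in husk, and the second 704 bp in V2-IST, against 286 bp in husk. In the first the longer extension lay on the low-coordinate side (807 bp) and in the second on the high-coordinate side (396 bp), so that the extensions pointed away from each other.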

How the data were processed

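DNase-seq reads were aligned by the authors with BWA, filtered for mapping quality with SAMtools and used for peak calling with MACS2 in each biological replicate, with naked DNA as control. Technical libraries were pooled, and peaks overlapping to a large extent between replicates were kept. How the edges of the integrated peaks were set is not stated for DNase-seq in the methods read here. The values deposited by the authors are chromosome, start and end only, 3 columns without score or read number, and the library depths were not used here. The methods name AGPv4 and the submitters' processing notes B73 RefGen_v3. The lists reach position 306756014 on chromosome 1, beyond the end of that chromosome in RefGen_v3, so coordinates are given as AGPv4, 1-based.

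Width was end minus start as deposited, which in the 1-based coordinates given here is end minus start plus 1. Members, lists and comparisons were chosen with earlier results of these data known. Regions were named by rule: the 5 highest ratios, the 5 largest added lengths, 3 pairs on either side of the threshold, the widest husk DHS, the longest run and the closest pairs. Shares were computed for one-to-one pairs with Wilson and Newcombe intervals. Alternatives were other ratios, overlaps, widths, distances and merging of close DHSs. Comparisons within classes of width or position, and the side facing a neighbour, were added after the data were examined. Genes, promoters and sequences were not analysed here, since the available gene table belongs to NAM-5.0, a different assembly. The pairing was tested on simulated lists with planted pairs. No simulated DHS overlapped more than 1 DHS of the other list, so leaving out such DHSs was not tested. Scripts ran in Python 3.11.15 with scipy 1.17.1, pandas 2.3.3 and numpy 2.4.6, and plots were drawn with matplotlib 3.10.9.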

Additional observations from a re-analysis of the deposited data

How the results depend on the processing

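Of 47 values under alternative settings, 33 stayed within the interval of the reported value (for the number of pairs, within 1.5 times) and 14 did not. No difference of shares with an interval that excluded 0 changed sign. In the terminal parts, the interval came to include 0 in all classes of V2-IST width and for husk DHSs under 300 bp. The number of pairs was 1094 at a ratio of at least 2 and 1372 with DHSs of at least 300 bp in both lists. The share with at least 90% of the added length on 1 side was 64.8% at a ratio of at least 2, 63.7% with DHSs of at least 300 bp and 61.1% with a width difference of at least 200 bp. The difference in V2-IST-only neighbours from the pairs of more similar widths was 1.41 points within 1 kb and 7.11 points within 20 kb. Within classes it was 7.92 points for husk DHSs of at least 600 bp, 1.15 points for V2-IST DHSs of 400 to below 800 bp and 2.17 points for those of 800 to below 1200 bp. The difference in the terminal parts was 8.63, 0.497 and 1.72 points in the same classes. The share of longer extensions that pointed towards a V2-IST-only DHS within 1 kb was 66.1% from the edges of the pair and 44.3% from those of the husk DHS. The cause of these shifts was not tested. No paired analysis was possible because the deposited lists combine the replicates of a tissue, and no replicate could be left out for the same reason.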

Other observations

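The longer extension pointed towards the nearest V2-IST-only DHS in 82 of 124 selected pairs with such a DHS within 1 kb of the outer edges of the pair (66.1%, Wilson interval 57.4 to 73.9%). Measured from the edges of the husk DHS, this was the case in 27 of 61 pairs (44.3%, 32.5 to 56.7%). The longer extension shortens the distance on its own side in the first measure, so no direction was read from it. Within 2 kb the shares were 59.3% from the edges of the pair and 52.9% from those of the husk DHS. Within 5 kb they were 57.1% and 53.8%. For other neighbours within 1 kb of the edges of the pair, the share was 46.4% (70 of 151) for V2-IST DHSs shared with husk. It was 51.6% (16 of 31) for husk-only DHSs. The cause of these differences was not tested.

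After a pair wider in husk, the next pair was also wider in husk in 101 of 952 cases (10.6%, 8.81 to 12.7%), against 850 of 10622 (7.50 to 8.53%) after all other pairs. Within 5 kb it was 31 of 192 (16.1%, 11.6 to 22.0%) against 162 of 1845 (8.78%).

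DHSs that were not in one-to-one pairs include 217 V2-IST DHSs overlapping at least 2 husk DHSs and 143 husk DHSs overlapping at least 2 V2-IST DHSs. The selection rule left them out.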
